A study of Saccharomyces cerevisiae with 32 samples.

Results

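The genes described here are the cyclins of the yeast cell cycle and *SIC1*, the inhibitor of the cyclin-dependent kinase that drives DNA replication and mitosis. They were chosen by name. Of the 10 genes named, 9 have a row among the 6328 genes of the deposited table: *CLN3* (YAL040C), *CLN1* (YMR199W), *CLN2* (YPL256C), *CLB5* (YPR120C), *CLB6* (YGR109C), *CLB3* (YDL155W), *CLB4* (YLR210W), *CLB2* (YPR119W) and *SIC1* (YLR079W). *CLB1* (YGR108W) is not analysed here. All 9 passed the filter on low values.

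In budding yeast a single kinase, Cdc28, takes its substrates from the cyclin it binds. Cln3 acts first, as cells grow in G1, and starts the transcription of *CLN1* and *CLN2*, whose products trigger budding and mark Sic1 for destruction. Sic1 holds the S-phase cyclins Clb5 and Clb6 inactive until then. The mitotic cyclins Clb3, Clb4 and Clb2 follow, and their destruction together with the return of Sic1 lets the cell leave mitosis. A culture that stops dividing for lack of nutrients collects in G1, where the G1/S and mitotic cyclins are not transcribed and *SIC1* is.

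RNA came from Y128, Y127 and Y22-3. Y22-3 is a stress-tolerant strain engineered with xylose isomerase and other genes of xylose metabolism, which all 3 strains carry. By the paper, Y22-3 could still not metabolize xylose. Y127 was evolved from it on xylose with oxygen and has null mutations in *ISU1* and *HOG1*, and Y128 was evolved from Y127 without oxygen and has lost *GRE3* and *IRA2* as well. Each strain was kept in rich medium with 2% xylose or 2% glucose, anaerobic or aerobic, in 2 libraries collected on different days (n = 2 in each of 12 groups, 24 libraries). A further 8 single libraries are of Y128 and Y22-3 in 2% sorbitol or 2% galactose, anaerobic or aerobic. By their descriptions, 8 libraries are of cultures that did not grow: Y127 and Y22-3 in anaerobic xylose, with 2 libraries each, and the 4 sorbitol cultures. These were set up from saturated overnight cultures at the density at which the others were harvested, and held for as long as the growing culture they were matched with, so that lack of growth and this handling cannot be told apart. Their growth stage label still reads exponential. The other 24 libraries are of growing cultures. Among them is Y22-3 in aerobic xylose, in a rich medium that also held yeast extract and peptone. Levels are log2 RPKM as deposited, the log2 of reads per length of gene and size of library. The library totals recovered from the lowest values were about 7530000 to 24120000 reads. A change or difference is one of log2 RPKM tested with limma across all genes, and "changed", "rose" and "fell" are written of an adjusted p-value (Benjamini-Hochberg) under 0.05. These are bulk RNA values, in which fewer cells with a transcript and less of it per cell cannot be told apart.

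In Y22-3 on xylose, the loss of oxygen came with low levels of every cyclin but *CLB5*. *CLN3*, the G1 cyclin upstream of the others, was at 2.35 and 2.23 in the anaerobic libraries, against 6.11 and 5.94 in the aerobic ones. *CLN1* was at 1.01 and 1.07 in anaerobic libraries, against 5.70 and 5.46 in aerobic ones. *CLN2*, its partner at the start of the cycle, was at 0.80 and 1.12 without oxygen, against 4.92 and 4.04 with it. The groups do not overlap for any of these 3 genes, which says little with 2 libraries each, and the share of all genes is not given here. The fitted changes were -3.74 (SE 0.22, adjusted p = 4.87e-12, limma), -4.54 (SE 0.37, adjusted p = 4.30e-10, limma) and -3.52 (SE 0.34, adjusted p = 7.07e-09, limma). As ratios these are 13.4-fold, 23.3-fold and 11.5-fold lower levels.

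*CLB2*, the main mitotic cyclin, was at 1.26 and 1.17 in anaerobic xylose of Y22-3, against 5.72 and 5.02 in aerobic xylose. It fell by 4.15 (SE 0.55, adjusted p = 6.51e-07, limma), to a level 17.8-fold lower. The other mitotic cyclins fell by less. *CLB3* was at 2.79 and 2.50 in the anaerobic libraries, against 4.41 and 4.32 in the aerobic ones, and *CLB4* at 0.72 and 0.31, against 3.13 and 2.50. Their changes were -1.73 (adjusted p = 3.53e-09, limma) and -2.30 (adjusted p = 7.96e-09, limma).

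The S-phase cyclins parted. *CLB6* was at -2.74 and -3.22 in anaerobic xylose of Y22-3, which is about 2 reads and 1 read, against 2.35 and 1.79 in aerobic xylose, with 43 and 82 reads. The ratio of its reads, scaled to the library totals, was 0.0202, with an exact interval of 0.00411 to 0.0604 that covers counting error only. *CLB5*, which shares the role of *CLB6* in firing replication origins, was at 4.54 and 4.29 without oxygen, against 3.81 and 3.98 with it. It was thus higher where the other cyclins were lower, by 0.52 (SE 0.21, adjusted p = 0.0271, limma). Without replicate A of the anaerobic or of the aerobic group the rise of *CLB5* was 0.40 (adjusted p = 0.160, limma) or 0.44 (adjusted p = 0.129, limma).

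*SIC1* was at 6.09 and 5.87 in anaerobic xylose of Y22-3, the highest of its levels in the 32 libraries, against 4.59 and 4.75 in aerobic xylose. It rose by 1.31 (SE 0.23, adjusted p = 2.59e-05, limma), or 2.48-fold. All 9 genes thus changed in Y22-3 without oxygen on xylose, 7 lower and 2 higher, where 84.4% of all genes tested changed, 63.7% lower and 20.7% higher. With most genes changed, the count says little about these 9, and the sizes say more: their median change was -3.52, and that of all genes -1.28. With each library centred on its median, 45.0% of genes were lower and 40.3% higher, and the split of the 9 stayed at 7 lower and 2 higher, with *CLB5* at 1.68 and *SIC1* at 2.46. The order of levels was turned over as well: in anaerobic xylose *SIC1* and *CLB5* led, with *CLN3* below *CLB3*, and in aerobic xylose of the same strain *CLN3*, *CLN1* and *CLB2* led. Low in the anaerobic order, the libraries of *CLN1* and *CLN2* overlap, so that these neighbours were not told apart.

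**Figure D1:**
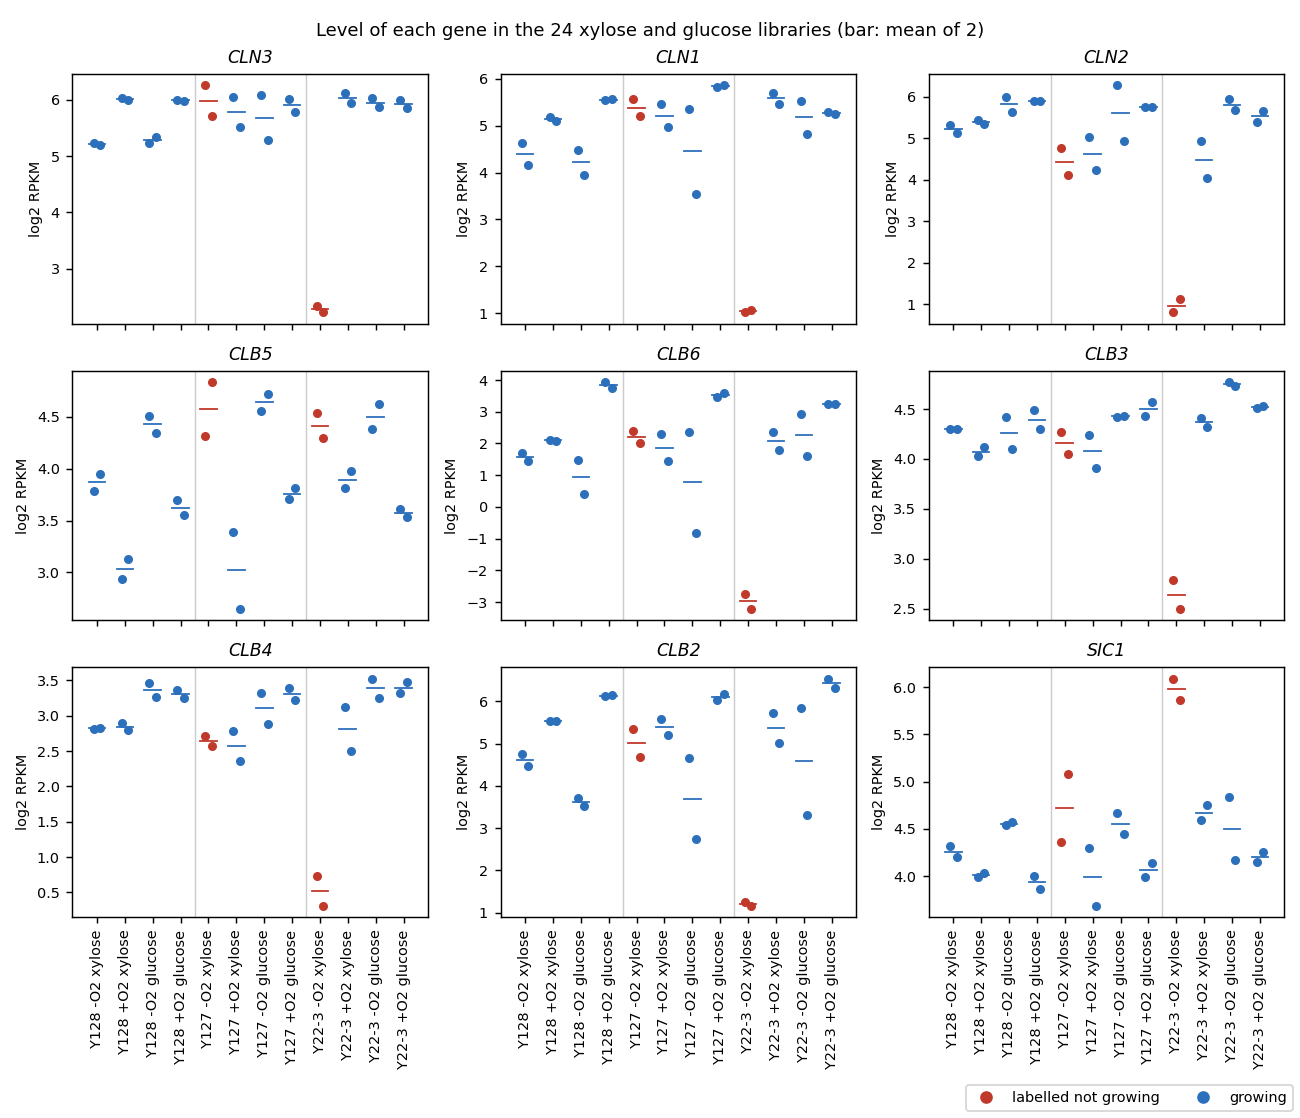
Level (log2 RPKM, vertical axis) of each of the 9 genes in the 24 xylose and glucose libraries, grouped by strain, sugar and oxygen; points are libraries, bars the mean of 2, red points cultures labelled as not growing and blue points growing ones. In Y22-3 anaerobic xylose 7 cyclins lie below all other groups and *SIC1* above, with *CLN3* at 2.35 and 2.23 and *SIC1* at 6.09 and 5.87, while the red points of Y127 lie among the blue ones for *CLN1* and *CLB2* and are at 6.25 and 5.70 for *CLN3*.

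Y127 was also labelled as not growing in anaerobic xylose and was handled in the same way, yet *CLN3*, *CLN1* and *CLB2* overlapped between its anaerobic and aerobic xylose libraries. *CLN3* was at 6.25 and 5.70 in the anaerobic libraries, against 6.05 and 5.51 in the aerobic ones. *CLN1* was at 5.56 and 5.21 without oxygen, against 5.46 and 4.96 with it, and *CLB2* at 5.36 and 4.68, against 5.58 and 5.20. The duplicates of Y127 lie apart, which makes overlap more likely. The median of all genes was 4.276 and 3.815 in its aerobic replicates A and B, and 4.185 and 4.39 in its anaerobic ones. Changed in Y127 were *CLB5* and *SIC1*, 2 of the 9 and both higher, where 57.1% of all genes changed, 33.6% higher and 23.5% lower (28.9% and 37.3% with centred libraries, where the same 2 genes were higher). *CLB5* was at 4.32 and 4.84 in anaerobic xylose, against 3.39 and 2.65 in aerobic xylose, a rise of 1.56 (SE 0.21, adjusted p = 3.59e-06, limma). *SIC1* was at 4.36 and 5.09 without oxygen, against 4.30 and 3.69 with it, a rise of 0.73 (SE 0.23, adjusted p = 0.0107, limma). Without replicate B of the anaerobic group the change of *SIC1* was 0.37 (adjusted p = 0.242, limma), and without replicate B of the aerobic group 0.43 (adjusted p = 0.173, limma), so that 1 of the 9 was then left changed. The other 7 genes differed by between -0.37 and 0.34, with adjusted p-values of 0.465 and above.

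In Y128, which grew in anaerobic xylose, 1 gene rose and 1 fell without oxygen, 2 of the 9, against 47.3% of all genes (21.0% higher and 26.3% lower). *CLN3* was at 5.24 and 5.19 in anaerobic xylose, against 6.04 and 6.002 in aerobic xylose, and fell by 0.81 (SE 0.22, adjusted p = 0.00559, limma). *CLB5* was at 3.79 and 3.95 without oxygen, against 2.94 and 3.13 with it, and rose by 0.83 (SE 0.21, adjusted p = 0.00303, limma). *CLN1* was at 4.63 and 4.16 in anaerobic libraries, against 5.18 and 5.09 in aerobic ones. *CLB2* was at 4.75 and 4.48 without oxygen, against 5.54 and 5.54 with it. Both groups of libraries stand apart for these 2 genes, but the differences did not pass the test (adjusted p = 0.103 for *CLN1* and 0.176 for *CLB2*, limma), in a fit that takes its spread from all 12 groups. In a fit of these 4 libraries alone, 7 of the 9 genes passed, 4 lower and 3 higher. The share of all genes in that fit is not given here, so the count is not read as a result about these genes.

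The test of whether the oxygen change on xylose differed between strains passed for 8 of the 9 genes between Y128 and Y22-3, where 78.3% of all genes passed, 59.3% with a positive and 19.1% with a negative difference (40.1% and 38.0% with centred libraries, where all 9 passed, 7 positive and 2 negative). The change in Y128 minus that in Y22-3 was 4.52 for *CLB6*, 3.80 for *CLN1*, 3.36 for *CLN2*, 3.23 for *CLB2*, 2.94 for *CLN3*, 2.27 for *CLB4*, 1.95 for *CLB3* and -1.07 for *SIC1*, with adjusted p-values of at most 0.00571 (limma). *CLB5* differed by 0.31 (adjusted p = 0.342, limma), and by -0.85 (adjusted p = 0.00117, limma) when each library was centred. Between Y128 and Y127 the same test passed for *CLN3* alone, at -1.005 (SE 0.31, adjusted p = 0.0159, limma), where 37.5% of all genes passed, 13.1% positive and 24.3% negative (25.6% and 22.9% with centred libraries, where *CLN3* passed alone). That call was lost without replicate A of Y127 anaerobic xylose (-0.73, adjusted p = 0.0828, limma) and without replicate B of Y127 aerobic xylose (-0.73, adjusted p = 0.0889, limma).

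**Figure D2:**
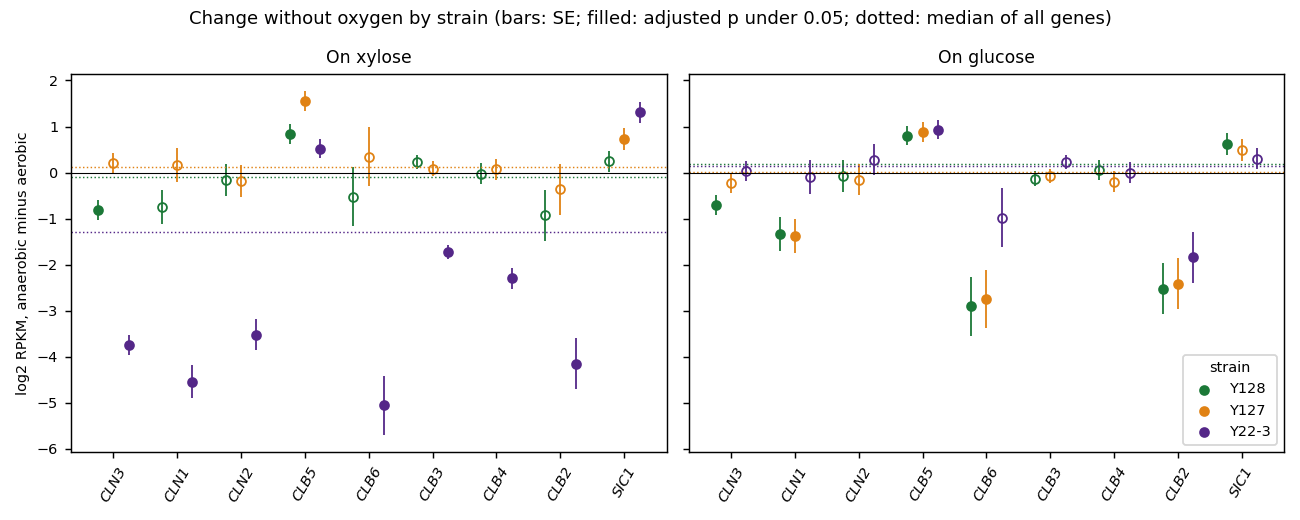
Change of log2 RPKM, anaerobic minus aerobic (vertical axis), of the 9 genes in Y128, Y127 and Y22-3, on xylose (left) and glucose (right); bars are SE, filled points have an adjusted p-value under 0.05 and dotted lines are the median of all genes in each strain. On xylose the points of Y22-3 fall to between -5.05 and -1.73 for 7 cyclins, and *CLB5* lies above 0 in all 3 strains on both sugars.

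Set side by side in anaerobic xylose, Y128 had higher levels than Y22-3 of 7 cyclins and lower levels of *CLB5* and *SIC1*. *CLN2* was at 5.32 and 5.13 in Y128, against 0.80 and 1.12 in Y22-3, which is 19.2-fold higher (4.27, SE 0.34, adjusted p = 3.08e-10, limma). *CLB6* had 83 and 74 reads in Y128, against 2 and 1 in Y22-3, a ratio of 38.0 with an exact interval of 12.8 to 186.2. The other 5 cyclins were higher by 1.66 (*CLB3*) to 3.40 (*CLB2*). *SIC1* was at 4.32 and 4.20 in Y128, against 6.09 and 5.87 in Y22-3, and was lower by 1.72 (SE 0.23, adjusted p = 6.82e-07, limma). All 9 genes differed, 7 higher and 2 lower, against 85.9% of all genes, 58.2% higher and 27.7% lower (46.7% and 41.2% with centred libraries, with the 9 genes still 7 and 2). *CLB5* differed by -0.55 (SE 0.21, adjusted p = 0.0204, limma), a call lost without replicate A of Y128 (-0.47, adjusted p = 0.111, limma) and without replicate A of Y22-3 (-0.43, adjusted p = 0.132, limma).

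Y127 against Y22-3 compares a pair of strains that were both labelled as not growing in anaerobic xylose and were set up alike. In this pair 8 of the 9 genes differed, 7 of them higher and 1 lower in Y127, where 81.6% of all genes differed, 61.2% higher and 20.4% lower (43.6% and 38.6% with centred libraries, with the 9 genes at 7 and 2). *CLN1* was at 5.56 and 5.21 in Y127, against 1.01 and 1.07 in Y22-3, which is 20.3-fold higher (4.35, SE 0.37, adjusted p = 1.40e-09, limma). *CLB2* was higher by 3.81 (adjusted p = 2.48e-06, limma), *CLN3* by 3.69 (adjusted p = 1.78e-11, limma) and *CLN2* by 3.47 (adjusted p = 1.25e-08, limma). *CLB6* had 96 and 62 reads in Y127, against 2 and 1 in Y22-3, a ratio of 60.2 with an exact interval of 20.2 to 294.8. *SIC1* was lower in Y127, by 1.26 (SE 0.23, adjusted p = 4.61e-05, limma). *CLB5* was at 4.32 and 4.84 in Y127, against 4.54 and 4.29 in Y22-3, and the ranges overlap. Its difference was 0.16 as deposited and -0.81 (adjusted p = 6.45e-05, limma) with centred libraries. Centring takes away the library medians, which were 4.185 and 4.39 in Y127, against 3.442 and 3.192 in Y22-3.

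Between Y128, which grew, and Y127, which did not, the largest difference among the 9 genes in anaerobic xylose was 0.99, that of *CLN1*. *CLN3* was at 5.24 and 5.19 in Y128, against 6.25 and 5.70 in Y127, and was lower by 0.77 (adjusted p = 0.00609, limma). *CLN1* was at 4.63 and 4.16 in Y128, against 5.56 and 5.21 in Y127, and *CLB5* at 3.79 and 3.95, against 4.32 and 4.84. They were lower by 0.99 (adjusted p = 0.0266, limma) and 0.71 (adjusted p = 0.00734, limma). *CLN2* went the other way, at 5.32 and 5.13 in Y128, against 4.76 and 4.11 in Y127, a difference of 0.79 that did not pass the test (adjusted p = 0.0555, limma), and that passed when each library was centred (0.90, adjusted p = 0.0333, limma). With 3 of 9 genes different, all lower, against 56.2% of all genes (25.9% higher and 30.3% lower), the share lay below the background. With centred libraries 1 was higher and 2 lower, against 33.9% and 30.4% of all genes, with *CLN1* at -0.89 and its call lost (adjusted p = 0.0504, limma). Each of the 3 calls was lost when 1 library was left out: *CLN3* without replicate A of Y127 (-0.49, adjusted p = 0.111, limma), *CLN1* without that library (-0.82, adjusted p = 0.143, limma) or replicate B of Y128 (-0.76, adjusted p = 0.180, limma), and *CLB5* without replicate B of Y127 (-0.45, adjusted p = 0.139, limma) or replicate A of Y128 (-0.63, adjusted p = 0.0615, limma).

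**Figure D3:**
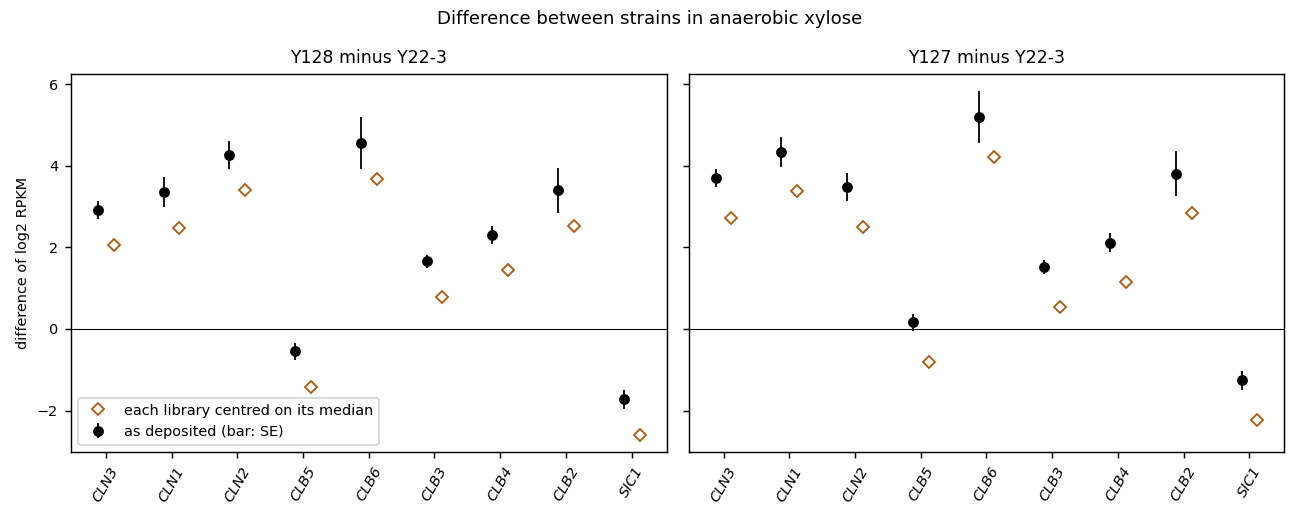
Difference of log2 RPKM in anaerobic xylose (vertical axis) for Y128 minus Y22-3 (left) and Y127 minus Y22-3 (right), as deposited (black, bars are SE) and after centring libraries on their medians (open diamonds). In both panels 7 cyclins are higher and *SIC1* lower than in Y22-3 by either scaling, while *CLB5* in Y127 is at 0.16 as deposited and -0.81 centred.

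On glucose, where all strains grew, *CLB5* rose without oxygen in each strain: it was at 4.51 and 4.34 in anaerobic Y128, against 3.70 and 3.55 in aerobic Y128, at 4.56 and 4.72 in anaerobic Y127, against 3.70 and 3.81, and at 4.38 and 4.62 in anaerobic Y22-3, against 3.62 and 3.53. The rises were 0.80 (adjusted p = 0.00215, limma), 0.88 (adjusted p = 0.00101, limma) and 0.93 (adjusted p = 0.000712, limma). On xylose and glucose *CLB5* was thus higher without oxygen in all 6 pairs of strain and sugar, with no overlap between the libraries of a pair, and passed the test in each. The share of all genes that did so is not given here. In the single sorbitol libraries *CLB5* was lower without oxygen, at 2.65 against 3.63 in Y128 and 3.24 against 4.42 in Y22-3. In galactose it was at 3.63 against 3.42 in Y128 and 4.01 against 3.98 in Y22-3.

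*CLB2*, whose product drives mitosis, fell in all 3 strains on anaerobic glucose. It was at 3.70 and 3.52 in anaerobic Y128, against 6.12 and 6.14 in aerobic Y128, a change of -2.52 (SE 0.55, adjusted p = 0.000442, limma). In Y127 it was at 4.65 and 2.74 without oxygen, against 6.03 and 6.18 with it (-2.41, adjusted p = 0.000675, limma). In Y22-3 it was at 5.85 and 3.32 without oxygen, against 6.54 and 6.31 with it (-1.84, adjusted p = 0.00644, limma). The anaerobic duplicates of Y127 and of Y22-3 thus lie far apart. Without replicate B the fall in Y22-3 was 0.57 (adjusted p = 0.307, limma) and without replicate A it was 3.10 (adjusted p = 1.32e-05, limma), and without the lower library of Y127 the fall in Y127 was 1.46 (adjusted p = 0.0327, limma).

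*CLB6* was at 1.49 and 0.42 in anaerobic glucose of Y128, against 3.94 and 3.76 in aerobic glucose, and fell by 2.90 (adjusted p = 0.000470, limma). In Y127 it was at 2.37 and -0.81 without oxygen, against 3.47 and 3.59 with it (-2.75, adjusted p = 0.000788, limma), and the change was -1.16 (adjusted p = 0.0441, limma) without the lower library and -4.34 (adjusted p = 1.87e-07, limma) without the higher one. *CLN1* was at 4.49 and 3.94 in anaerobic glucose of Y128, against 5.54 and 5.57 in aerobic glucose, and fell by 1.34 (adjusted p = 0.00314, limma). In Y127 *CLN1* was at 5.36 and 3.55 without oxygen, against 5.83 and 5.86, a fall of 1.39 (adjusted p = 0.00238, limma) that became 0.48 (adjusted p = 0.152, limma) without the lower library and 2.29 (adjusted p = 6.92e-07, limma) without the higher one. *CLN2* passed the test in no strain on anaerobic glucose (adjusted p = 0.481 to 0.858, limma).

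In all, 6 of the 9 genes changed on glucose in Y128, 4 in Y127 and 2 in Y22-3, against 68.4%, 68.2% and 65.4% of all genes. Of all genes 39.6% were higher and 28.8% lower in Y128, 35.3% and 32.9% in Y127, and 37.7% and 27.6% in Y22-3. With centred libraries these were 34.1% and 41.9% in Y128, 33.6% and 42.0% in Y127 and 32.4% and 40.2% in Y22-3. The 9 genes were then at 1 higher and 5 lower, 1 and 3, and 1 and 1, where as deposited they were at 2 and 4, 1 and 3, and 1 and 1. The remaining calls in Y128 were those of *CLN3*, at 5.23 and 5.35 without oxygen, against 5.995 and 5.98 with it (-0.70, adjusted p = 0.00854, limma), and of *SIC1*, at 4.54 and 4.57, against 4.001 and 3.87 (0.62, adjusted p = 0.0225, limma). The call for *CLN3* was lost without replicate A of the anaerobic group (-0.64, adjusted p = 0.0520, limma). That for *SIC1* was lost without either anaerobic library or replicate B of the aerobic group (adjusted p = 0.0635 to 0.108, limma) and with centred libraries (0.32, adjusted p = 0.111, limma).

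Without oxygen, xylose against glucose in Y22-3 has the same xylose libraries as the oxygen comparison of that strain. *CLN2* was at 0.80 and 1.12 on xylose, against 5.93 and 5.68 on glucose, a fall of 4.84 (SE 0.34, adjusted p = 4.94e-11, limma). *CLN3* fell by 3.66, *CLN1* by 4.14, *CLB2* by 3.37, *CLB4* by 2.87 and *CLB3* by 2.11, and *SIC1* rose by 1.48, with adjusted p-values of at most 9.71e-06 (limma). *CLB6* had 2 reads and 1 read on xylose, against 149 and 57 reads on glucose, a ratio of 0.0147 with an exact interval of 0.00301 to 0.0436. The value for *CLB2* was -2.11 without replicate A of anaerobic glucose (adjusted p = 0.000334, limma). *CLB5* was at 4.54 and 4.29 on xylose, against 4.38 and 4.62 on glucose, a difference of -0.09 (adjusted p = 0.706, limma) that was 1.15 (adjusted p = 1.04e-06, limma) with centred libraries. In this comparison 8 of the 9 genes changed, 1 higher and 7 lower, against 86.6% of all genes, 21.9% higher and 64.7% lower (40.4% and 45.9% with centred libraries, with the 9 genes at 2 and 7).

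In Y127, *CLN1* and *CLN2* moved apart between the sugars without oxygen. *CLN1* was at 5.56 and 5.21 on xylose, against 5.36 and 3.55 on glucose, and was higher by 0.93 (adjusted p = 0.0412, limma), although the ranges overlap. *CLN2* was at 4.76 and 4.11 on xylose, against 6.27 and 4.92 on glucose, and was lower by 1.16 (adjusted p = 0.00836, limma). These are 2 of the 9 genes, against 50.2% of all genes (21.8% higher and 28.4% lower). With centred libraries 2 of the set were higher and 1 lower, against 28.7% and 29.2% of all genes. The values for *CLN1* and *CLN2* both rest on single libraries: without the glucose library that is lower for both genes, *CLN1* differed by 0.03 and *CLN2* by -1.83. Without the other glucose library *CLN1* differed by 1.83 and *CLN2* by -0.48. Without replicate A of Y127 anaerobic xylose *CLN1* did not pass (adjusted p = 0.197, limma), and without its replicate B neither gene did (adjusted p = 0.0639 for *CLN1* and 0.115 for *CLN2*, limma). In Y128, *CLB5* alone changed, at 3.79 and 3.95 on xylose, against 4.51 and 4.34 on glucose (-0.56, adjusted p = 0.0417, limma), against 38.8% of all genes, 12.3% higher and 26.5% lower (26.6% and 22.5% with centred libraries, where no gene of the set passed). The call was lost whichever of the 4 libraries was left out (adjusted p = 0.0825 to 0.199, limma).

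With oxygen, where cultures of every strain grew in medium with either sugar, the genes that changed were lower in xylose medium. In Y127 these were *CLN2*, *CLB5*, *CLB6*, *CLB3* and *CLB4*, 5 of 9, against 39.8% of all genes, 14.0% higher and 25.8% lower (22.0% and 21.9% with centred libraries, where 3 were lower). *CLN2* was at 5.02 and 4.22 on xylose, against 5.75 and 5.74 on glucose (-1.12, adjusted p = 0.0142, limma). *CLB6* was at 2.29 and 1.45 on xylose, against 3.47 and 3.59 on glucose (-1.66, adjusted p = 0.0456, limma). In Y22-3 these were *CLN2*, at 4.92 and 4.04 on xylose, against 5.39 and 5.66 on glucose (-1.04, adjusted p = 0.0146, limma), and *CLB4*, at 3.13 and 2.50, against 3.32 and 3.47 (-0.58, adjusted p = 0.0354, limma), where 53.2% of all genes changed, 31.0% higher and 22.1% lower (28.6% and 34.6% with centred libraries, where 3 were lower). In Y128 they were *CLB5*, at 2.94 and 3.13 on xylose, against 3.70 and 3.55 on glucose (-0.59, adjusted p = 0.0293, limma), and *CLB6*, at 2.12 and 2.09, against 3.94 and 3.76 (-1.75, adjusted p = 0.0329, limma), where 42.9% of all genes changed, 24.3% higher and 18.6% lower (25.7% and 29.7% with centred libraries, where 4 were lower).

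None of these calls with oxygen held in every fit that left out 1 library. In Y127, 1 of the 5 was left without either glucose library and 0 without replicate B of xylose. In Y22-3, 1 was left without replicate A of glucose and 0 without replicate B of glucose or of xylose. In Y128, 0 were left whichever library was left out. The 3 genes of Y127 not valued above changed by -0.74 (*CLB5*), -0.74 (*CLB4*) and -0.43 (*CLB3*), with ranges of -1.11 to -0.36, -0.95 to -0.53 and -0.59 to -0.26 over these fits. The value for *CLN2* in Y127 was -0.73 and that for *CLN2* in Y22-3 was -0.60 without replicate B of xylose, and that for *CLB4* in Y22-3 was -0.27 without replicate B and -0.89 without replicate A of xylose.

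Sorbitol is a sugar alcohol on which neither strain grew, and galactose a sugar on which both did, each with 1 library for a strain and oxygen state. *CLB2* was at 0.82 and 1.28 in sorbitol of Y128, anaerobic and aerobic, against 5.14 and 5.61 in galactose, and at 0.96 and 1.96 in sorbitol of Y22-3, against 3.62 and 5.98. *CLN2* was at 2.30 and 1.33 in sorbitol of Y128, against 5.76 and 5.79 in galactose, and at 1.25 and 1.73 in sorbitol of Y22-3, against 4.07 and 4.82. *CLN1* was between 1.63 and 2.48 in the 4 sorbitol libraries, against 3.98 to 5.73 in the 4 galactose libraries. For each of these genes every sorbitol library lay below every galactose library.

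With strain and oxygen as pairs, 5 of the 9 genes were lower in sorbitol, against 18.3% of all genes lower, 0.605% higher and 18.9% changed in either direction. The changes were -3.83 for *CLB2* (SE 0.45, adjusted p = 0.0212, limma), -3.46 for *CLN2* (adjusted p = 0.0251, limma), -3.42 for *CLB6* (adjusted p = 0.0343, limma), -3.15 for *CLN1* (adjusted p = 0.0312, limma) and -1.89 for *CLN3* (adjusted p = 0.0343, limma), and the median of all genes was -0.88. *CLB6* had 4 and 4 reads in anaerobic and aerobic sorbitol of Y128, and 7 and 5 in that of Y22-3. Its levels there depend on the read taken as added. The test has 3 residual degrees of freedom. With 1 pair left out, the changes ran over -4.22 to -3.67 for *CLB2* and -3.67 to -3.12 for *CLN2*. They ran over -3.96 to -3.06 for *CLB6*, -3.42 to -2.90 for *CLN1* and -2.11 to -1.70 for *CLN3*. The calls depended on the pairs and the scaling. None of the 5 passed when each library was centred (adjusted p = 0.0886 to 0.224, limma, where 0.121% of all genes were lower). None passed without the Y128 anaerobic, the Y128 aerobic or the Y22-3 aerobic pair, and 4 passed without the Y22-3 anaerobic pair. The share of all genes in the fits without a pair is not given here, so these counts are not read as results about the genes.

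The other 4 genes did not pass the test between sorbitol and galactose (adjusted p = 0.0516 for *CLB4*, 0.0748 for *CLB3*, 0.582 for *SIC1* and 0.660 for *CLB5*, limma). *CLB4* differed by -1.85 to -1.15 in the 4 pairs, and *CLB3* by -2.49 and -1.80 in the anaerobic pairs of Y128 and Y22-3 and by -0.78 and -0.39 in the aerobic ones. *SIC1* and *CLB5* were the 2 genes with both signs among their pairs. With oxygen *SIC1* was at 4.63 in sorbitol of Y128, against 4.57 in galactose, and at 5.59 in sorbitol of Y22-3, against 4.53. Without oxygen it was at 3.66 in sorbitol of Y128, against 4.33, and at 2.76 in sorbitol of Y22-3, against 4.99. *CLB5* was at 3.63 in aerobic sorbitol of Y128, against 3.42 in galactose, and at 4.42 in that of Y22-3, against 3.98, but at 2.65 and 3.24 in the anaerobic sorbitol libraries of Y128 and Y22-3, against 3.63 and 4.01. The median of all genes was lower too in anaerobic sorbitol, by 1.28 in Y128 and 1.39 in Y22-3. With 1 library for each condition, the difference between anaerobic and aerobic pairs was not tested.

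**Figure D4:**
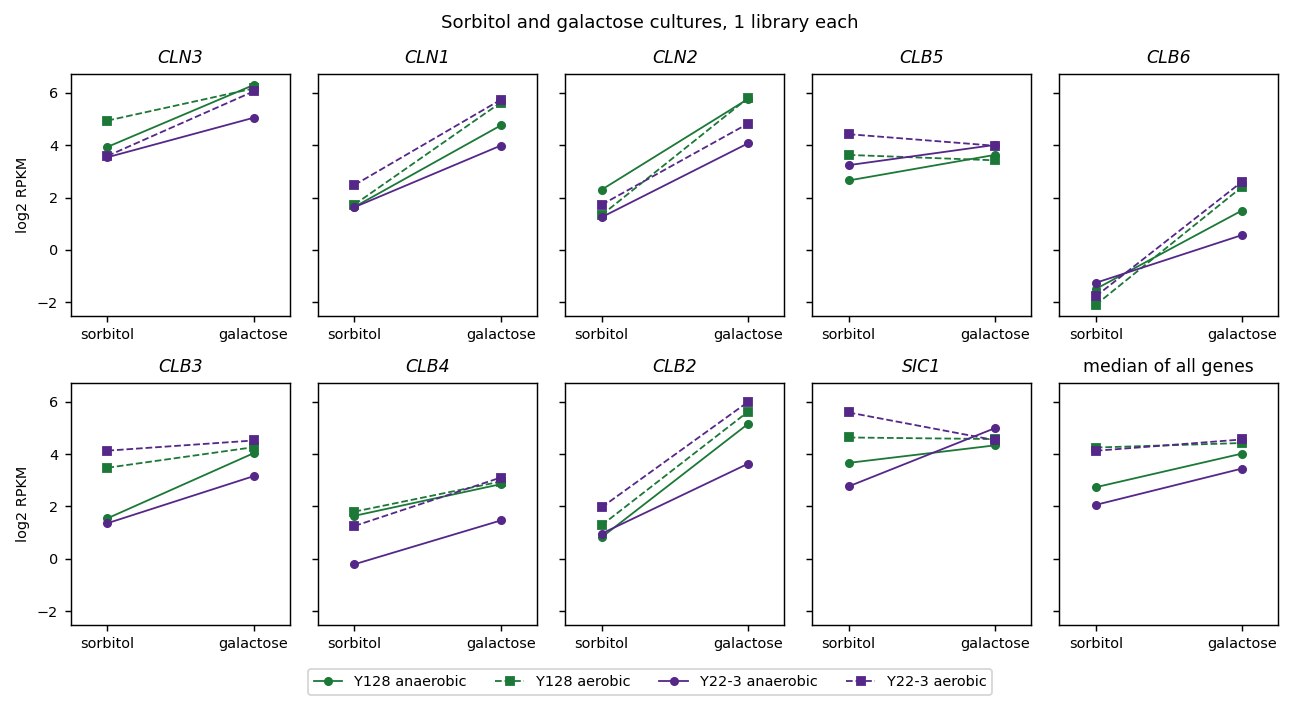
Level (log2 RPKM, vertical axis) of the 9 genes and of the median of all genes in sorbitol (left of each panel) and galactose (right), with a line for each strain and oxygen state; each point is 1 library. *CLB2* is at 0.82 to 1.96 in sorbitol and 3.62 to 5.98 in galactose, while *SIC1* is at 2.76 to 5.59 in sorbitol, on both sides of its 4.33 to 4.99 in galactose.

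Over all 32 libraries, no gene of the set had ranges that stood apart between the cultures that did not grow and those that did. Of all genes tested, 0.0172% were lower and 0.0% higher without growth with no overlap (0.138% and 0.0344% with centred libraries, none of them in the set). *CLN3* ranged over 2.23 to 6.25 in the 8 libraries without growth (median 3.76), against 5.05 to 6.30 in the 24 with growth (median 5.99). *CLB2* ranged over 0.82 to 5.36 without growth (median 1.27), against 2.74 to 6.54 with growth (median 5.54). The upper ends without growth are those of Y127 in anaerobic xylose. In the 24 xylose and glucose libraries alone no gene of the set stood apart (9.26% of all genes lower and 3.08% higher), and in the 8 sorbitol and galactose libraries 5 did, all lower without growth (3.68% of all genes lower and 0.207% higher). *SIC1* ranged over 2.76 to 6.09 without growth, against 3.69 to 4.99 with growth.

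Differences between genes within a library do not depend on the scaling between libraries. *SIC1* minus *CLB2*, the inhibitor against the mitotic cyclin, was 4.83 and 4.70 in anaerobic xylose of Y22-3 and 1.80 to 3.62 in the 4 sorbitol libraries. In growing cultures it ran from -2.39 to 1.71, with a median of -1.08. The 2 Y127 libraries in anaerobic xylose, at -0.99 and 0.40, lay within that range, near the -0.43 and -0.28 of Y128. Growing cultures in anaerobic glucose also had high values, from -1.02 to 1.71, against -2.39 to -2.04 in aerobic glucose.

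*SIC1* minus *CLB5* was 1.55 and 1.58 in anaerobic xylose of Y22-3, above the highest of the 24 growing libraries at 1.15, but -0.47 to 1.17 in the 4 sorbitol libraries, which also did not grow. In Y127 it was 0.05 to 0.25 in anaerobic xylose, and in Y128 0.25 to 0.53. *CLB5* minus *CLB6*, between the S-phase cyclins, was 7.28 and 7.51 in anaerobic xylose of Y22-3, 4.14 to 6.19 in sorbitol, and -0.24 to 0.37 in aerobic glucose. *CLB6* had at most 7 reads in these xylose and sorbitol libraries, so these differences depend on the read taken as added. One growing library of Y127 in anaerobic glucose, that with 10 reads of *CLB6*, was at 5.53. *CLN3* minus *CLN2* was 1.11 to 3.61 in the 8 libraries without growth, against -0.76 to 1.90 in the 24 with growth, and *CLB3* minus *CLB4* -0.10 to 2.88, against 0.83 to 1.82. *CLN1* minus *CLN2* was -1.69 to -0.40 in anaerobic glucose and 0.80 to 1.10 in anaerobic xylose of Y127.

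**Figure D5:**
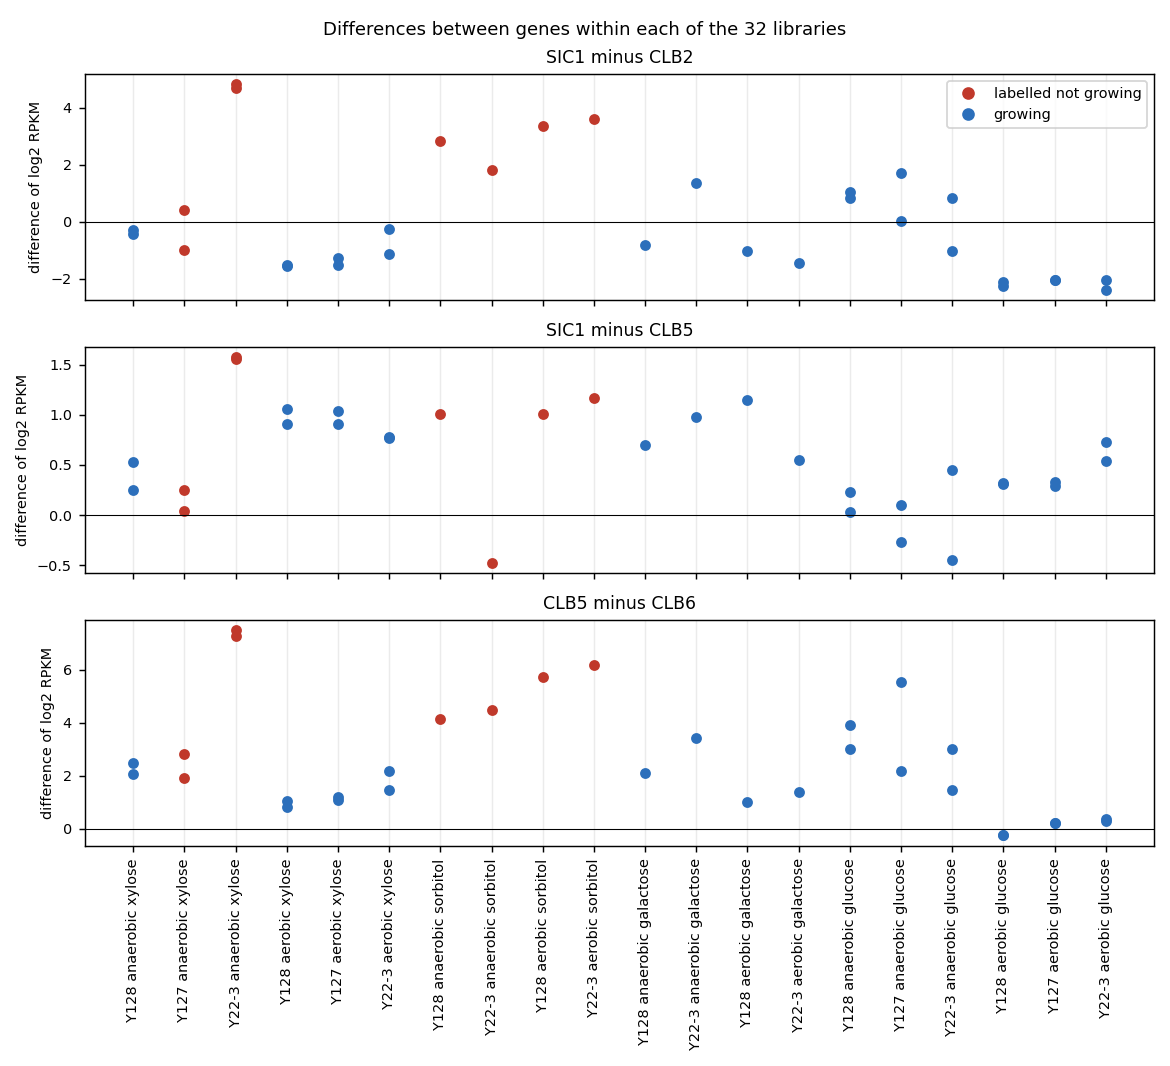
Differences of log2 RPKM between genes of the same library (vertical axes) in the 20 conditions, with red points for cultures labelled as not growing and blue points for growing ones. *SIC1* minus *CLB2* is highest in Y22-3 anaerobic xylose at 4.70 and 4.83, followed by the sorbitol libraries at 1.80 to 3.62, and Y127 anaerobic xylose lies at -0.99 and 0.40.

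The genes around the cyclins in the same pathway were counted by list in anaerobic xylose, where 58.2% of all genes were higher and 27.7% lower in Y128 than in Y22-3, and 61.2% higher and 20.4% lower in Y127 than in Y22-3. Of 14 genes of the G1/S cluster, which are transcribed with *CLN1* and *CLN2*, 12 were higher and 1 lower in Y128 than in Y22-3, and 13 were higher in Y127 than in Y22-3 (12 higher and 2 lower, and 12 higher and 1 lower, with centred libraries). Their medians were 2.93 and 2.71, against 1.04 and 1.12 for all genes. *PCL1*, a cyclin of the Pho85 kinase, was at 4.33 and 4.13 in Y128, against -1.56 and 0.13 in Y22-3 (4.94, adjusted p = 7.40e-09, limma), and *RNR1*, which supplies deoxynucleotides, was higher by 3.42. All 11 genes of the M/G1 list were higher in Y128 and in Y127 than in Y22-3, with medians of 3.35 and 3.49 (10 higher and 1 lower in Y128, and 10 higher in Y127, with centred libraries). *EGT2* and *CTS1*, which act in the separation of daughter cells, were higher in Y128 by 5.34 and 4.48. Of 12 genes of the *CLB2* cluster, 8 were higher and 2 lower in Y128 than in Y22-3 (median 1.51), a share near the 58.2% of all genes that were higher, and with centred libraries 6 were higher and 3 lower, against 46.7% and 41.2% of all genes. The members that differed most were *CDC5*, the polo kinase, and *ALK1*, a haspin kinase, higher by 3.19 and 2.47.

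*CDC28*, the kinase itself, was at 4.77 and 4.76 in Y128, against 3.27 and 3.17 in Y22-3, and was higher by 1.55 (adjusted p = 2.28e-07, limma), with 1.04 for the median of all genes. Its partner *CKS1* was higher by 2.43, and all 3 genes of that list were higher in either evolved strain than in Y22-3 (2 of the 3 with centred libraries). *FAR1*, an inhibitor of the Cln kinases, was at 5.60 and 5.51 in Y128 and at 4.68 and 4.27 in Y127, against 0.20 and 0.08 in Y22-3. It was higher by 5.42 in Y128 (adjusted p = 6.18e-15, limma) and by 4.34 in Y127 (adjusted p = 9.29e-13, limma), the opposite direction to *SIC1*. *MIH1*, the phosphatase that activates Clb kinases, was lower by 2.42 in Y128 than in Y22-3. In that list of 5, 2 were higher and 1 lower in Y128, and 4 higher and 1 lower in Y127 (2 and 3, and 2 and 1, with centred libraries).

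The genes of cyclin and Sic1 destruction went both ways, with 4 of 12 higher and 5 lower in Y128 than in Y22-3, against 58.2% of all genes higher and 27.7% lower (3 and 9 with centred libraries, against 46.7% and 41.2%). *CDC20*, which targets mitotic cyclins, was at 3.35 and 3.25 in Y128, against -0.30 and -0.81 in Y22-3 (3.86, adjusted p = 1.60e-10, limma). *CDC34*, the enzyme that attaches ubiquitin to Sic1, was at 5.89 and 5.84 in Y128, against 8.46 and 8.73 in Y22-3 (-2.73, adjusted p = 6.55e-11, limma). Of 8 regulators of Start 6 were higher and 1 lower (3 and 3 with centred libraries), and their median of 0.86 lay below the 1.04 of all genes. The members that differed most were *SWI4*, a subunit of the factor that transcribes *CLN1* and *CLN2*, higher by 2.44, and *NRM1*, a repressor of G1/S genes, by 2.62. Of 5 mitotic exit genes 3 were higher and 2 lower, a split near that of all genes, among them *TEM1*, a GTPase, and *CDC14*, the phosphatase that reverses Cdk phosphorylation, higher by 3.28 and 2.57.

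Cyclins with other roles were counted in the same way. Of 8 genes for Pho85 and its cyclins, 2 were higher and 4 lower in Y128 than in Y22-3 (median -0.38), and 1 higher and 7 lower with centred libraries, against 46.7% and 41.2% of all genes. *PCL7* and *PCL8*, which act on glycogen, were lower by 3.06 and 2.11. Of 4 cyclins of transcription kinases 2 were higher and 2 lower (1 and 2 with centred libraries), with *BUR2* at 1.83 and *CCL1* at -2.82. Between Y128 and Y127, where 56.2% of all genes differed, the share that differed varied between the lists. Those that differed were 0 of 12 genes of the *CLB2* cluster, 1 of 11 M/G1 genes, 2 of 8 regulators of Start, 4 of 14 G1/S genes and 1 of 3 of *CDC28* and its partners. In the other lists they were 6 of 12 of cyclin and Sic1 destruction, 2 of 4 cyclins of transcription kinases, 3 of 5 inhibitors, 5 of 8 of Pho85 and its cyclins and 4 of 5 mitotic exit genes. With centred libraries 33.9% of all genes were higher in Y128 and 30.4% lower. Higher and lower were then 1 and 0 of the *CLB2* cluster, 3 and 1 M/G1 genes and 1 and 2 regulators of Start. For G1/S genes they were 1 and 3, for *CDC28* and its partners 1 and 0, and for destruction 2 and 4. They were 1 and 2 for cyclins of transcription kinases, 1 and 2 for inhibitors, 1 and 4 for Pho85 and 2 and 2 for mitotic exit.

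Starved diploid yeast can enter meiosis, and 7 markers of it were followed. Their summed level was 8.03 to 27.9 RPKM in the 8 libraries without growth (median 11.5), against 5.89 to 44.5 RPKM in the 24 with growth (median 12.8), and 10.4 to 11.5 RPKM in anaerobic xylose of Y22-3. *SPO13* was higher by 4.98 in Y128 than in Y22-3 in anaerobic xylose (adjusted p = 8.66e-07, limma). It was at 1.26 and 1.92 in Y128, against -3.94 and -2.84 in Y22-3, which is about 0 reads and 1 read. It was the single marker of the 5 tested that differed, against 85.9% of all genes, 58.2% higher and 27.7% lower. With centred libraries 1 marker was higher and 2 lower, against 46.7% and 41.2% of all genes.

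The genes whose pattern over the 20 conditions was most like that of a cyclin are given as a description, with no test. For *CLB2* these were *TOS4*, *VMA1* and *GAS1*, with Pearson's r of 0.98, 0.97 and 0.97. For *CLN2* they were *SAC1*, *SCP160* and *RBS1*, with r of 0.96, 0.96 and 0.95, and for *SIC1* they were *DLT1*, *ULS1* and *GPR1*, with r of 0.95, 0.94 and 0.93. Each point holds the libraries of 1 condition. The levels were not centred, and the library medians ran from 2.06 to 4.59, so shifts shared by all genes of a library enter r.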

How the data were processed

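The values are the log2 RPKM per gene that the authors deposited for 32 libraries in 1 table. The authors made ribosome-depleted, stranded single-end libraries, trimmed reads with Trimmomatic (0.3.0 in the submitters' notes), aligned them with Bowtie2 2.2.2 to the genome of Y22-3 and counted by gene with HTSeq 0.6.0, before scaling to gene length and library total. Whether the counting used strand is not given in the sources used here. In the R64 annotation, used here for names, lengths and gene order alone, *CLB2* and *CLB5* are neighbours on opposite strands of chromosome XVI, as are *CLB1* and *CLB6* on chromosome VII, and without strand reads where neighbours overlap cannot be told apart.

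The 12 duplicated groups were fitted as group means in 1 model (limma 3.58.1, R 4.3.3, variance trend, 12 residual degrees of freedom) over 5801 genes averaging an RPKM of 1 or more. Sorbitol and galactose (8 libraries, 5785 genes) were fitted with a block for strain and oxygen state. P-values were adjusted over all genes tested (Benjamini-Hochberg, threshold 0.05). In the fit of the duplicated groups they measure the spread between duplicates of different days. Sorbitol and galactose have 1 library for each condition, and there they measure the spread of the difference over the pairs of strain and oxygen state. The columns of Y127 on glucose share a replicate letter within each oxygen state, which gives the group without a replicate number. Fits were checked on simulated data.

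Library totals were recovered from the lowest values, with 1 read taken as added before scaling: 81.8 to 86.4% of values under 20 reads then lay within 0.1 of a whole read, for 5647 genes with a reference length. Intervals on reads are exact (95%) and cover counting error only. Read counts are estimates of this kind, and levels of genes with few reads understate a fold change. Levels are relative to the library total, and RNA per cell was not measured.

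Alternatives were centring each library, log2(RPKM + 1), dropping the filter, fitting only the libraries compared, a replicate block, and leaving out each library. The block was fitted on the 20 duplicated libraries with a known replicate letter. The genes and lists were chosen with earlier results of these data known. All members are named, and from each list the 2 genes that differed most between Y128 and Y22-3 on xylose without oxygen, among those past the test and of the same direction in every pair of libraries. Genes of like pattern are the 3 highest by Pearson's r for *CLN2*, *CLB2* and *SIC1*. Summaries used Python 3.11.15.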

Additional observations from a re-analysis of the deposited data

Results flagged for a closer look

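The oxygen change on xylose differed between strains for 9 of the 18 differences tested (9 genes, Y128 against Y22-3 and against Y127). For Y128 against Y22-3 the changes differed by 2.94 for *CLN3*, 3.80 for *CLN1*, 3.36 for *CLN2*, 4.52 for *CLB6*, 1.95 for *CLB3*, 2.27 for *CLB4*, 3.23 for *CLB2* and -1.07 for *SIC1*, and for Y128 against Y127 by -1.005 for *CLN3* (adjusted p = 0.0159, limma).

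A single library lay far from the rest of its set in 2 of the 27 sets checked (9 genes in the 8 libraries without growth, the 4 sorbitol and the 4 galactose libraries). Each set mixes strains and oxygen states, and the genes share libraries, so no rate expected by chance is given. *CLN1* was at 2.48 in aerobic sorbitol of Y22-3, against 1.73 in the nearest of the other sorbitol libraries. *CLB4* was at 1.46 in anaerobic galactose of Y22-3, against 2.85 in the nearest of the other galactose libraries. Without the aerobic pair of Y22-3 0 of the 9 genes passed between sorbitol and galactose, and without its anaerobic pair 4 did. The share of all genes in these fits is not given here.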

How the results depend on the processing

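Of the 83 gene values examined, 79 of them past the threshold, the alternatives other than leaving out a library gave 394 values, of which 368 kept direction and side of the threshold, 20 lost the call, 3 gained it and 3 changed sign. The sign changes were all of *CLB5* with centred libraries, at -0.81 for Y127 against Y22-3 in anaerobic xylose, 1.15 for Y22-3 on xylose against glucose without oxygen, and -0.85 for the oxygen change of Y128 against Y22-3. Leaving out 1 library gave 372 values, of which 298 kept both, 70 lost the call, 1 gained it and 3 changed sign. These sign changes were again of *CLB5*, which ran over -0.099 to 0.42 for Y127 against Y22-3 in anaerobic xylose and -0.21 to 0.037 for Y22-3 on xylose against glucose without oxygen. The cause was not tested.

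The number of the 9 genes past the threshold moved by over 1.5 times in the following cases. Except for centred libraries and the overlap of ranges, the share of all genes in these fits is not given here. The counts therefore describe the fits and are not read as results about the genes. With the compared libraries fitted alone it was 1 for oxygen on xylose in Y127 (2 in the fit of all groups), 7 in Y128 (2) and 1 for oxygen on glucose in Y22-3 (2). For xylose against glucose it was then 1 without oxygen in Y127 (2) and 5 in Y128 (1), and with oxygen 4 in Y22-3 (2), 2 in Y127 (5) and 7 in Y128 (2). For the oxygen change of Y128 against Y127 it was 2 (1). With centred libraries it was 0 for xylose against glucose without oxygen in Y128, 3 with oxygen in Y127, 4 with oxygen in Y128, and 0 for sorbitol against galactose. With log2(RPKM + 1) it was 2 for xylose against glucose without oxygen in Y128. Between cultures with and without growth, 5 genes did not overlap in the 8 galactose and sorbitol libraries (0 in all 32). Leaving out 1 library gave 1 to 2 genes for oxygen on xylose in Y127 and 0 to 2 for the oxygen change of Y128 against Y127. For xylose against glucose it gave 0 to 4 without oxygen in Y127, 0 in every fit for Y128, and with oxygen 0 in every fit for Y128, 0 to 5 for Y127 and 0 to 2 for Y22-3. For sorbitol against galactose it gave 0 to 4. These fits hold fewer samples by construction.

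Replicate letters did not pair the samples: over 45 pairs of groups the correlation of the deviations of replicate A had a median of 0.011 and a range of -0.105 to 0.332, with 7 over 0.1. The replicate block was fitted on the 20 libraries with a known replicate letter, without Y127 on glucose. In that fit 4 genes passed for xylose against glucose with oxygen in Y22-3 (2 in the fit of 24 libraries). For the oxygen change of Y128 against Y127 2 passed (1 in the fit of 24 libraries). The block and the smaller set of libraries cannot be told apart here. The shares of all genes with the block are not given here. No paired analysis was possible because the columns carry no replicate number for the comparisons with Y127 on glucose.

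*CLB6* had 1 or 2 reads in anaerobic xylose of Y22-3 and 4 to 7 in sorbitol. The level of a gene with so few reads depends on the read taken as added. In anaerobic xylose of Y22-3 its ratio is bounded by counting alone.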
